A study of Mus musculus with 2 samples.

Results

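Accessible chromatin at the 3' ends of protein-coding genes was examined in the postnatal mouse heart. Peaks of the 2 replicates were merged where they overlapped or touched. A merged region entered the set if it had a peak in each replicate and lay over 2 kb from every annotated transcription start. Its middle base also had to fall within 1 kb of the 3' end of a protein-coding gene and outside coding sequence (CDS). These conditions use no signal value, but they do require a called peak in each replicate. Left were 1479 regions of 104208 shared merged regions, or 1.42%. They were 2.31% of the 63926 shared regions that lay over 2 kb from a start and outside CDS, called distal regions here.

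DNase-seq cuts nuclei with DNase I and maps the cuts, so that open chromatin appears as peaks and a protein bound to DNA as a short protected stretch, a footprint. The samples were hearts of male B6CASTF1/J mice, the F1 cross of C57BL/6J and CAST/EiJ, aged 14 days. They formed 1 group of 2 biological replicates with no treatment and no contrast, so no test between groups was possible and both replicate values are given throughout. Replicate 1 is labelled as 3 males and replicate 2 without a number of animals, and both carry the same donor record. The labels do not say if these hearts were pooled, and the 2 replicates may differ in that.

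The tissue label was checked on promoters, and 8 of 8 heart muscle genes were open there in each replicate, against 0 of 3 liver, 0 of 2 lung and 0 of 3 leukocyte genes. The larger deposited sets held 143122 and 125118 peaks in replicates 1 and 2, with 350009 and 335568 footprints. No read totals were at hand, so the depth of each library is unknown. In whole tissue, accessibility in few cells and weak accessibility in many cannot be told apart.

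At the 3' end of a gene the transcript is cut and polyadenylated a short way after a signal word in the 3' untranslated region (UTR), and RNA polymerase II runs on before it stops. Accessible sites near 3' ends can be enhancers, starts of transcripts that were not annotated, or sites of the zinc finger protein CTCF. CTCF binds a long, directional motif and anchors chromatin loops and boundaries, and its sites give clear footprints.

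The sequences of 6 regions outside annotated UTRs show what such a region is like. The first 3 are the strongest without a match to the CTCF core, and the last 3 lie beyond the ends of heart genes. Capitals mark bases inside a footprint of both replicates. The sequence is the C57BL/6J reference, build mm10 (GRCm38), which does not show alleles of the CAST parent.
Ctdsp1, chr1:74397361-74397580, plus strand: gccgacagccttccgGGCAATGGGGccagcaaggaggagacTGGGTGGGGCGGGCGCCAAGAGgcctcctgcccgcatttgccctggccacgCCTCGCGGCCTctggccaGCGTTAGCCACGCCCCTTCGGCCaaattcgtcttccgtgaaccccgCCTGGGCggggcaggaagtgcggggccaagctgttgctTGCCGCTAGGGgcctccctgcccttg
Fam120a, chr13:48878681-48878900, plus strand: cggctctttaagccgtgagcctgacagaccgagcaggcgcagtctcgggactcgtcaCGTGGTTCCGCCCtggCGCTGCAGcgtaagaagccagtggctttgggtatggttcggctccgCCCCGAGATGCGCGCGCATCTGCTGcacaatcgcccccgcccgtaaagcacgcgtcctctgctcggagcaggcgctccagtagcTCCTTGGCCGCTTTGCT
Acvrl1, chr15:101145501-101145680, plus strand: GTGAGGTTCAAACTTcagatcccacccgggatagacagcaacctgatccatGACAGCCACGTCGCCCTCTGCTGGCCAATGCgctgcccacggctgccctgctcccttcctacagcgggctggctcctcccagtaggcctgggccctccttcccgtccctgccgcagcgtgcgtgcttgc
Tnni1, chr1:135811361-135811540, plus strand: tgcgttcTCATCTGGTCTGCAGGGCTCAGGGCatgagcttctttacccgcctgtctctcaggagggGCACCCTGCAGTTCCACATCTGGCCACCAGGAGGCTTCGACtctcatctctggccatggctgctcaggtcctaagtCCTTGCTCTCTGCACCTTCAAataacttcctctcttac
Csrp3, chr7:48829312-48829500, plus strand: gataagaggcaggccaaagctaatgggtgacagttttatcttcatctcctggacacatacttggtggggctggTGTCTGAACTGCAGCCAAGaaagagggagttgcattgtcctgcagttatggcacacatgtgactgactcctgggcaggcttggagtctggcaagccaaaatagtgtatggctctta
Tbx2, chr11:85842081-85842280, plus strand: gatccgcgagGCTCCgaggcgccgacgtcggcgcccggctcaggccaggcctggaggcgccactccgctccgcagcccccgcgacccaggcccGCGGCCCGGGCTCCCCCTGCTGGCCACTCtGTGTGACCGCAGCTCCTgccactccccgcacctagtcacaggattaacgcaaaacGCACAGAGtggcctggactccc

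The region beyond Ctdsp1, a phosphatase of the RNA polymerase II tail, had 84 of its 220 bases in footprints of both replicates. The region beyond Fam120a, which encodes an RNA-binding protein, had 63 of 220. Both were rich in G and C, at 70.5% and 65.5%, against a median of 54.1% over the 1479 regions. The region beyond Tnni1, the slow skeletal troponin I that the heart makes before the cardiac form replaces it, had 87 of 180 bases protected in both replicates.

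A second group of sequences shows the CTCF core in 9 of the 20 strongest regions. The core was searched on both strands as CC, 3 free bases, AG, 1 free base, G or T, then GGC and last GC, AC or AG. Only exact matches counted, so a region without a match can still hold a CTCF site. The regions printed above for Acvrl1 and Tbx2 each hold, in capitals, a stretch that differs from a core word at 1 base. Each line gives the core in capitals with 5 bases either side, read on the strand of the core, in the same build.
Ckb, chr12:111668530-111668543, plus strand: cctgaCCAGCAGGTGGCAGcacaa
Dand5, chr8:84815729-84815742, minus strand: tttagCCACTAGGTGGCACcgcgt
Bcan, chr3:87987142-87987155, minus strand: tgtgaCCAGTAGAGGGCGCtgcag
Copz2, chr11:96862097-96862110, minus strand: tagtaCCTCCAGGTGGCGCtctag
Lag3, chr6:124903750-124903763, plus strand: ggtgaCCACTAGGTGGCAGtgtgt
Ripor1, chr8:105622566-105622579, plus strand: tgtcgCCACCAGGGGGCAGcagaa
Skap2, chr6:51858066-51858079, minus strand: agtggCCAGCAGATGGCAGcagct
Csrp1, chr1:135753088-135753101, minus strand: catggCCAGCAGAGGGCAGcctgt
Dtnb, chr12:3781740-3781753, plus strand: actggCCGCCAGGGGGCGCactgc

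All 14 bases of each of these 9 cores lay inside footprints in both replicates. The cores beside Dand5, Bcan, Ripor1, Skap2 and Dtnb read along the strand of the gene, and those beside Ckb, Copz2, Lag3 and Csrp1 read the other way. Over all members with a core on 1 strand, 123 read along the host gene and 109 against it. The share along the gene was 53.0%, with an exact binomial 95% interval of 46.4% to 59.6%. This interval and those below cover counting error only.

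The 3'-end regions and those somewhat farther from gene ends were denser than distal chromatin as a whole. The members lay at 50.9 per Mb of eligible sequence, meaning bases over 2 kb from a start and outside CDS, against 27.1 per Mb elsewhere. The ratio was 1.88. Density also fell with distance from starts, so the ratio was taken again within classes of that distance. It was 1.46 at 2 to 5 kb, 1.55 at 5 to 10 kb, 1.40 at 10 to 20 kb and 1.60 at 20 to 50 kb. Beyond 50 kb it was 2.07, on 24 members. The sequence 1 to 5 kb beyond 3' ends was about as dense. Counted once for each gene end, regions there lay at 52.1 per Mb, against 52.5 per Mb within 1 kb of the end. From 1 to 5 kb before the end the density was 42.0 per Mb.

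The density was not even along the gene end. It was 64.5 per Mb in the 250-base window before the last one of the gene and 36.5 per Mb in the last 250 bases. It was 47.9 per Mb in the first 250 bases beyond and between 52.2 and 56.1 per Mb in the 3 windows after that. The same dip was present with the peaks of replicate 1 alone, at 47.5 against 81.8 per Mb, and of replicate 2 alone, at 42.9 against 75.01 per Mb. The eligible bases of the last window held 39.6% G and C, against 43.4% in the window before it and 43.6% in the one after. Regions and eligible bases were counted once for each gene end, so a region near several ends was counted at each. The window at 64.5 per Mb held 227 such counts and the last window 136. By nearest end alone, the same windows held 194 and 133 members. The parts of base composition and of multiple counting in the dip were not tested.

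**Figure D1:**
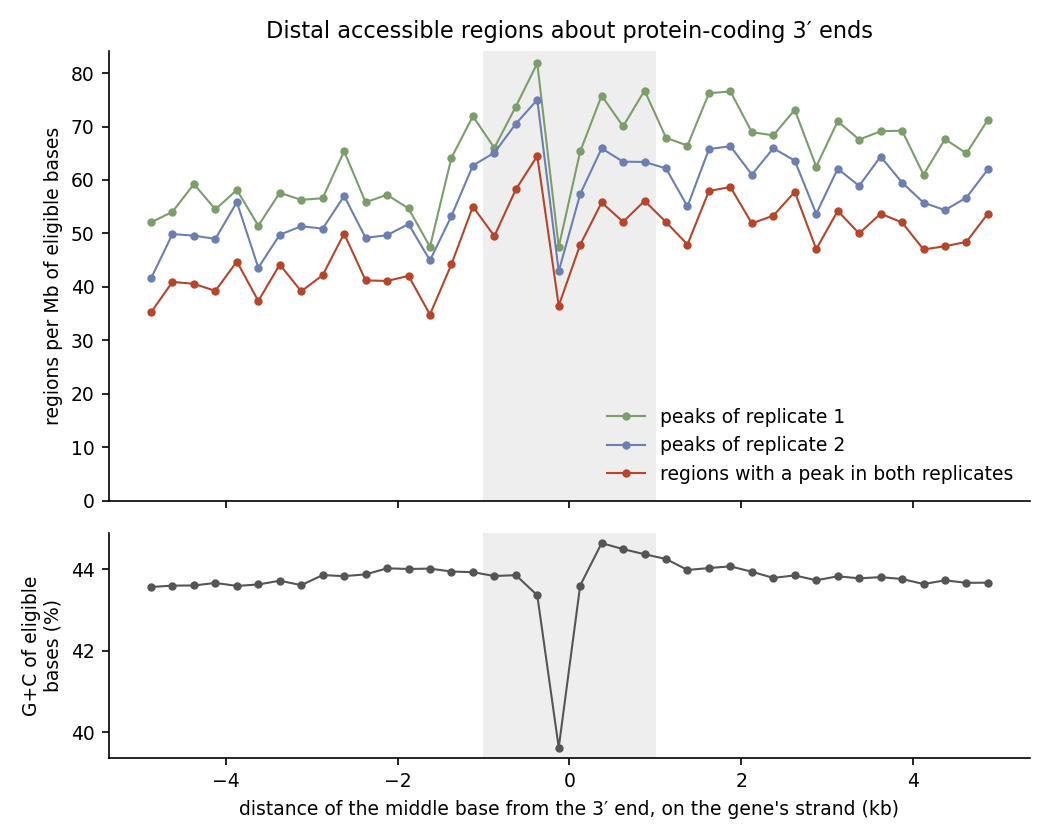
Accessible regions per Mb of eligible sequence (upper panel, y axis) and G and C content of that sequence (lower panel, y axis, not starting at 0), by distance from the 3' end on the strand of the gene (x axis, kb). Points are windows of 250 bases, grey marks the 1 kb either side that holds the members, and all 3 lines drop to 36.5, 47.5 and 42.9 per Mb in the last window before the end. A region near several gene ends is counted at each.

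Beyond the 3' end lay 807 members, or 54.6% (interval 52.0% to 57.1%), and 672 lay at or before it. Of the eligible sequence within 1 kb of an end, 53.7% lies beyond it, so the split of members was near that of the sequence. Their median peak signals were 1.39 and 1.12 beyond the end in replicates 1 and 2, against 1.20 and 0.949 before it. The signal is the authors' value for each peak, whose exact scaling is not stated. By annotation the middle base of 672 members was intergenic, of 593 in a 3' UTR, of 187 in an intron and of 27 in another exon. Median signals in 3' UTRs were 1.21 and 0.967. Those of intergenic members were 1.39 and 1.10.

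Members just inside the limits of the rule were close in signal to regions just outside. The 149 members from 901 to 1000 bases from the 3' end had medians of 1.33 and 0.985. The 140 regions just outside, at 1001 to 1100 bases, had 1.22 and 0.979. At the limit on starts, 66 members at 2001 to 2200 bases from a start had medians of 1.50 and 1.13. The 54 regions at 1801 to 2000 bases, left out by the rule, had 1.41 and 1.20.

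The members spanned a wide range of signal. In replicate 1 the values ran from 0.135 to 51.7 with a median of 1.30, and in replicate 2 from 0.0955 to 50.3 with a median of 1.03. The other 62447 distal regions had medians of 0.915 and 0.704, so the members' median was 1.43 and 1.46 times as high. Against the 4698 distal regions from 1 to 5 kb from a 3' end the ratios were only 1.05 and 1.09. The regions 1 to 5 kb away were thus nearly as high as the members.

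The signal of distal regions fell with distance from starts, and the middle bases of members lay nearer to starts, at a median of 5948 bases against 13682. Within the same class of distance the members were still higher. At 2 to 5 kb their medians were 1.46 and 1.13, against 1.07 and 0.830 for other regions. At 20 to 50 kb they were 1.09 and 0.842, against 0.830 and 0.639. Over the 5 classes the ratio ran from 1.16 to 1.36 in replicate 1 and from 1.21 to 1.37 in replicate 2.

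**Figure D2:**
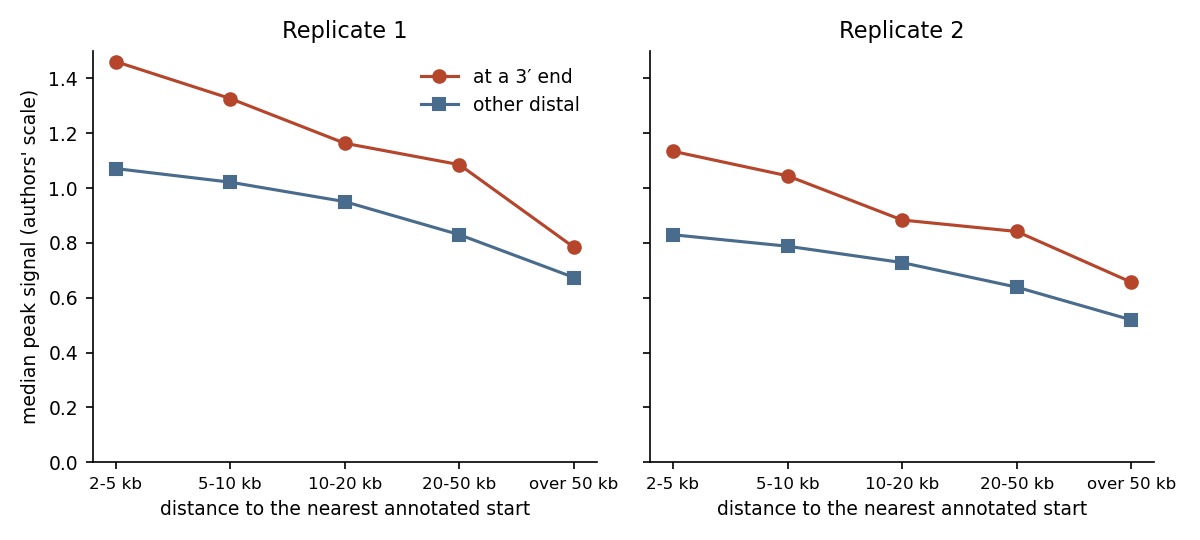
Median peak signal on the authors' scale (y axis) by distance to the nearest annotated start (x axis), for replicates 1 and 2. Circles are regions at a 3' end and squares the other distal regions. The members lie above the others in all 5 classes of both replicates, by ratios of 1.16 to 1.37.

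In the upper tail, 236 members were in the upper 10% of distal regions in both replicates, above 3.28 and 2.46. That is 16.0% of members (interval 14.1% to 17.9%), against 8.97% of all distal regions. Merged regions at 3' ends were about as often shared between replicates as those 1 to 5 kb away. A peak in both was present in 67.0% of 2208 merged regions at 3' ends, 67.6% at 1 to 5 kb and 62.5% of other distal regions.

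Over the 1479 members the log2 signals of the replicates had a Pearson correlation of 0.967, a description, since the points share the same 2 libraries. Replicate 1 was higher in 84.4% of members, with a median log2 ratio of replicate 1 to replicate 2 of 0.33 (SD 0.33 over members). This was not particular to the members. Replicate 1 was higher in 85.0% of other distal regions and 87.0% of those 1 to 5 kb from a 3' end, with median log2 ratios of 0.36 and 0.37. In 27 members the replicates differed by more than 2-fold. The widest gap with replicate 2 on top was at Gm21887 on the X chromosome, a predicted gene chosen here after its values were seen, with 2.97 and 8.68. All of its 32-base words, 100%, occur more than once in the genome.

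**Figure D3:**
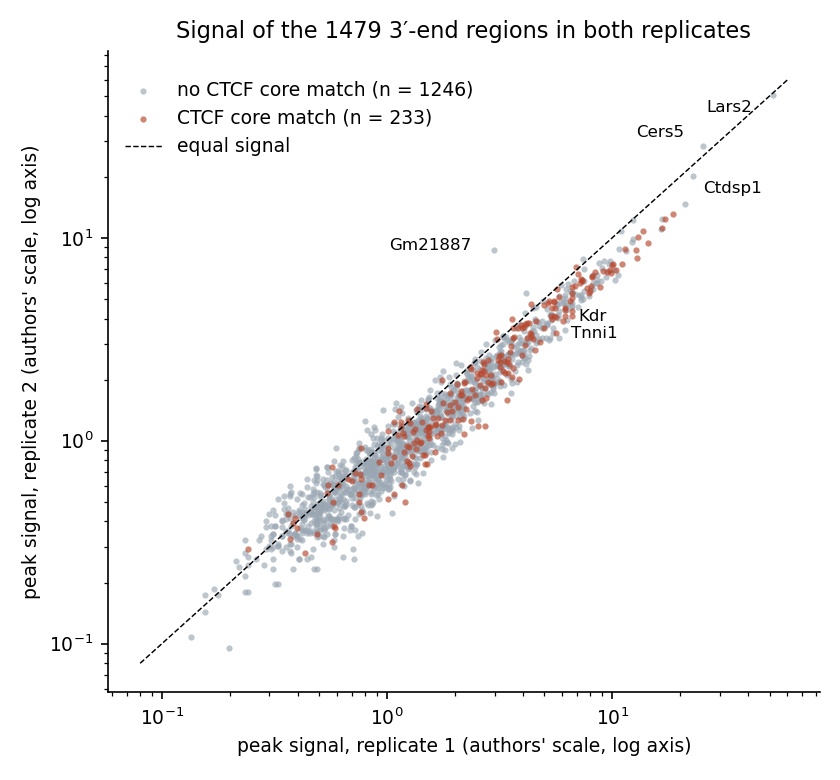
Peak signal of each of the 1479 members in replicate 1 (x axis) and replicate 2 (y axis), both on the authors' scale and log axes. Red points are the 233 members with a CTCF core match, grey points the others, and the dashed line marks equal signal. Most points lie below the line, Gm21887 stands above it at 2.97 and 8.68, and the red points gather towards higher signal.

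The strongest member lay in the 3' UTR of Lars2, the mitochondrial leucyl-tRNA synthetase, 676 bases before the gene's end. Its signal was 51.7 and 50.3. Of its 32-base words 57.05% occur more than once in the genome, in up to 8 copies including its own, and 0% occur in the mitochondrial genome. The part of repeats in this signal was not tested. Over all members, 36 or 2.43% had more than 20% repeated words, against 2.29% of distal regions.

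Next came the 3' UTR of Cers5, a ceramide synthase, with 25.2 and 28.5. It and the region at Lars2 held no exact match to the CTCF core. The region beyond Ctdsp1 had 22.8 and 20.2, and that beyond Fam120a 20.98 and 14.7. The SD of the replicates was 4.43 at Fam120a and 1.89 at Ctdsp1.

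Among the 9 regions with a CTCF core, that beyond Ckb, the brain-type creatine kinase, was the strongest at 18.6 and 13.1. The 3' UTR of Dand5, a secreted Nodal antagonist of left-right patterning, had 17.2 and 12.4. Bcan, a proteoglycan of brain matrix, had 16.6 and 11.2. Copz2, a subunit of the COPI vesicle coat, had 13.7 and 10.8. Lag3, an inhibitory receptor of T cells, had 14.4 and 9.39, and it was the only one of the 20 strongest without a promoter peak in each replicate.

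The other 4 with a core were Ripor1 at 13.0 and 10.1, and Skap2, an adaptor of Src kinase signalling, at 12.7 and 8.67. Csrp1, a LIM protein of smooth muscle, had 12.9 and 7.97, and Dtnb, beta-dystrobrevin, had 11.3 and 8.84. Replicate 1 was higher in all 9, which is also the commoner direction over all members and over other distal regions.

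The rest of the 20 strongest had no exact match to the core. Rtn2, a reticulon that shapes endoplasmic reticulum, had 16.6 and 12.3 in its 3' UTR. Acvrl1, the endothelial receptor ALK1, had 16.5 and 11.1 at 254 bases beyond its end. Sertad1, a cell-cycle regulator, had 12.4 and 12.2, and 76.1% of its bases were G or C. H13, the signal peptide peptidase, had 12.3 and 9.90. Rhoc, a small GTPase, had 12.3 and 9.56 where its end faces that of Mov10. Shf, an SH2 adaptor, had 10.9 and 10.7, and Slc11a1, a metal transporter of macrophage phagosomes, 11.5 and 8.65.

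Footprints covered the members slightly more than other distal regions. A footprint overlapped the region in both replicates in 1316 members, or 89.0% (interval 87.3% to 90.5%), against 84.7% of distal regions. None in either replicate was found in 24 of 1479 members and in 1898 of 62447 other distal regions. The density was 12.6 and 12.5 footprints per kb of region, against 11.5 and 11.1 for other distal regions and 12.9 and 12.7 at 1 to 5 kb. Members held 4064 and 4041 footprints with median lengths of 12 and 11 bases, which covered 19.3% and 18.2% of their bases. Of those of replicate 1, 65.6% overlapped a footprint of replicate 2. In other distal regions footprints covered 16.1% and 14.8% of the bases, and 59.2% of those of replicate 1 overlapped one of replicate 2.

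The number of footprints moved with signal. The 373 members with 1 to 3 footprints, summed over replicates, had median signals of 0.617 and 0.549. The 582 with 4 to 6 had 1.24 and 0.982, the 385 with 7 to 9 had 2.60 and 1.92, and the 115 with 10 or more had 3.27 and 2.54. At signals from 0.5 to 1, 87.5% of members and 88.1% of other regions had a footprint in both replicates. Above 4 all 160 members and 99.97% of other regions had one. Within a class of signal the members were thus close to other regions, and below 0.5 they were lower, at 52.2% against 56.5%.

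Of the 5 members with the most footprints, Ctdsp1 was among the 20 strongest and the other 4 were long regions of moderate signal. Hspb7, a small heat shock protein of heart muscle, had 12 and 9 in a region of 920 bases with signals of 2.03 and 2.12. Otx1, a homeobox factor of the forebrain, had 7 and 11 in 520 bases, with 1.09 and 1.43. Rnf112, a RING finger protein, had 9 and 7 in 440 bases, with 2.25 and 2.17. Kcnj5, which forms the atrial potassium channel opened by acetylcholine, had 7 and 9 in 440 bases, with 2.44 and 1.68. Ctdsp1 had 7 and 9 in 220 bases, with 22.8 and 20.2.

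The CTCF core was matched in 233 members, or 15.8% (interval 13.9% to 17.7%), against 10.1% of distal regions and 16.5% of regions 1 to 5 kb from a 3' end. In 220 of the 233, or 94.4%, a footprint overlapped the core in both replicates. Among regions with a core, the share was close to this elsewhere, at 94.2% at 1 to 5 kb and 91.0% in other distal regions. The 220 are 14.9% of members, against 9.23% of distal regions. Members with a core had median signals of 2.60 and 1.92, against 1.16 and 0.922 without one. In other distal regions the medians were 1.96 and 1.41 with a core and 0.858 and 0.668 without.

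The share with a core rose with signal in members and in other regions alike. Below 0.5 it was 5.26% against 3.90%, and from 0.5 to 1 it was 6.26% against 6.00%. From 1 to 2 it was 16.9% against 11.1%, from 2 to 4 it was 24.7% against 23.0%, and above 4 it was 37.5% against 31.8%. By distance to starts, the share of members was 17.6%, 13.9%, 17.4%, 10.8% and 16.7% from the nearest class to the farthest. The other regions fell from 11.7% to 7.17% over the same classes. How far signal accounts for the share was not tested.

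Of the other motifs, the KLF and SP words GGGCGGG and GGGTGTGG were in 10.1% of members, 8.73% of regions 1 to 5 kb from a 3' end and 7.68% of other distal regions. The interval for members was 8.65% to 11.8%. The word TGANTCA of the FOS and JUN dimers was in 7.17%, 8.43% and 10.0% of these sets, with an interval for members of 5.90% to 8.60%. AGATAA of the GATA factors was in 7.17%, 6.96% and 8.76%, and GGAATG of the TEAD factors in 13.0%, 12.9% and 14.8%. The shares at 1 to 5 kb lay inside the members' intervals for all 4. Words of the muscle factors MEF2 were in 1.56%, 1.70% and 1.81%, and TCAAGTG of the NKX2 factors in 2.91%, 2.81% and 3.18%. Both strands were searched, and some words can overlap each other.

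Footprints marked the words unequally. The nuclear factor 1 motif, TTGGC and GCC with 5 free bases between, was in 68 members and under a footprint of both replicates in 59, or 86.8%. For CAGCTG, the E-box of basic helix-loop-helix factors, it was 75 of 374, or 20.1%, and for the FOS and JUN word 10 of 106, or 9.43%. In the same order the shares were 76.1%, 20.8% and 12.8% in other distal regions. At 1 to 5 kb from a 3' end they were 78.9%, 21.2% and 15.7%. The words thus differed in the same order in all 3 sets. A longer word gives a footprint more bases to overlap, so these shares are not on equal terms.

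**Figure D4:**
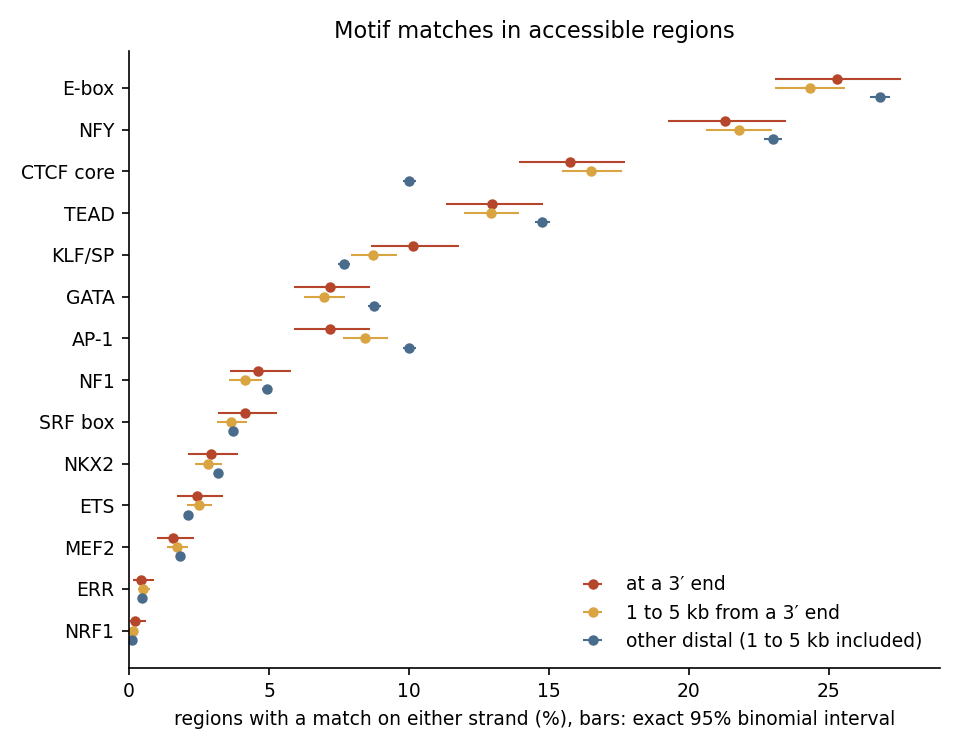
Percentage of regions with a match to each motif on either strand (x axis), for regions at a 3' end, 1 to 5 kb from one, and all other distal regions, with exact 95% binomial intervals. The CTCF core stands at 15.8% and 16.5% in the first pair of sets against 10.0% in the other distal regions, while the FOS and JUN word (AP-1) stands at 7.17%, 8.43% and 10.0%.

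The poly(A) signal word AATAAA was more frequent on the strand of the gene in the windows either side of the 3' end. It was on the host strand in 17.3% of the 133 members in the last 250 bases before the end and in 15.3% of the 190 in the first 250 bases beyond. On the other strand the shares there were 6.02% and 4.74%. In the 6 windows farther out, host-strand shares ran from 2.06% to 6.25%. Over all members the word was on the host strand in 99, or 6.69%, and on the other strand in 60, or 4.06%. The shares were 3.83% and 4.98% at 1 to 5 kb from a 3' end, and 5.05% and 5.598% in other distal regions.

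The annotated 3' end itself lay inside 84 regions. In 44 of the 99 the word ended within the last 40 bases of the gene. A footprint of both replicates overlapped the word in 15 of the 99, and in 5 of the 44 near the end.

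**Figure D5:**
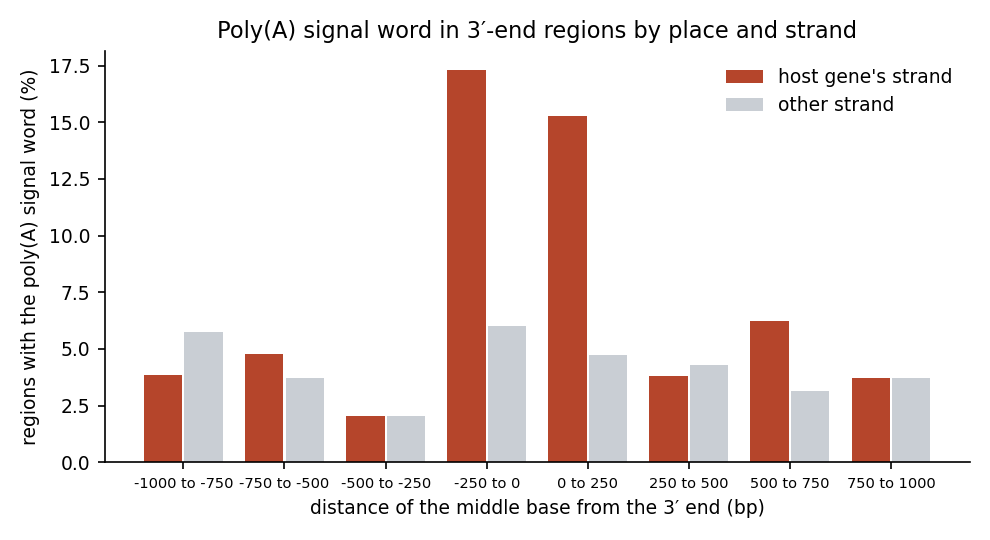
Percentage of members with the poly(A) signal word (y axis) by distance of the middle base from the 3' end (x axis, windows of 250 bases), on the host gene's strand (red) and on the other strand (grey). The red bars reach 17.3% and 15.3% in the windows either side of the end and are at most 6.25% elsewhere.

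The members belonged to 1326 genes, or 7.09% of the 18715 protein-coding genes whose 3' end leaves room for a member. One member was found at 1184 genes, 2 at 133 and 3 or more at 9. Sh2d2a and Cant1, named for their count after values were seen, had 4 each, none above 1.22 in replicate 1. Most host genes had an open promoter. A promoter peak was present in each replicate at 1121 hosts, or 84.5%, against 69.4% of the genes with room. The start nearest to the region was the host's own in 52.9% of members.

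Members at hosts with an open promoter had medians of 1.33 and 1.06, and the 229 at other hosts 1.11 and 0.883. A CTCF core was in 15.6% and 16.6% of them. A second protein-coding 3' end lay within 1 kb of 91 members, or 6.15%, and in 87 it was on the opposite strand. Their medians were 1.22 and 1.04, against 1.31 and 1.01 for the other 1388, so the order differed between replicates. Of the host genes 48.1% faced the 3' end of the next gene, against 44.8% of genes with room.

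Other accessible regions were often close. Another shared region lay within 1 kb of 388 members, or 26.2% (interval 24.0% to 28.6%), against 21.4% of distal regions. The median distance to the nearest one was 2790 bases, against 3114.5 bases at 1 to 5 kb from a 3' end and 4140 bases for other distal regions. Members lie nearer to starts, where regions are denser, and the part of that in the spacing was not tested. Chromosome 11 held the most members, 165, and none lay on Y. These counts were not set against the genes or distal regions of each chromosome.

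Heart muscle genes were among the hosts. Of 32 genes of contraction and calcium handling with room, 6 had a member, or 18.8%, against the 7.09% over all genes. Tnni1 had the strongest, with 5.75 and 4.04 at 461 bases beyond its end. Csrp3, the LIM protein of the Z-disc, had 1.36 and 0.937. The members at Tnni1 and Csrp3 were isolated, with the nearest other region 17618 and 13164 bases away.

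Of 25 cardiac transcription factors 4 had a member, or 16.0%. Beyond Tbx2, which represses chamber genes in the atrioventricular canal, the signals were 4.14 and 5.32, with replicate 2 the higher. Irx3, a homeobox factor of the conduction system, had 3.21 and 2.97, with 7 and 2 footprints. Mef2a, a MADS-box factor of muscle, had 2.94 and 2.30. For fatty acid oxidation and respiration 2 of 23 genes had one. Ppara, the nuclear receptor that drives fatty acid oxidation, had 1.90 and 1.15, and Fabp3, the fatty acid carrier of heart muscle, 0.9503 and 0.812. The member at Fabp3 lay 517 bases beyond that gene's end, in an annotated 3' UTR, with the 3' end of Zcchc17 also within 1 kb.

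Genes of other heart cells were hosts as well. Of 13 smooth muscle and pericyte genes 4 had a member, or 30.8%. Lmod1, an actin nucleator of smooth muscle, had 7.38 and 6.21, the strongest of all gene-list members, with a CTCF core under footprints of both replicates. Smtn, a smooth muscle actin-binding protein, had 1.43 and 1.18 where its end faces that of Selenom. Cspg4, the pericyte proteoglycan NG2, had 0.638 and 0.794 with a footprint in replicate 1 only.

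In endothelium 2 of 18 genes had one. Kdr, the VEGF receptor, had 6.22 and 4.61 in its 3' UTR with 7 and 6 footprints, and Dll4, a Notch ligand of vessels, 1.50 and 1.12. Upk3b, a gene of epicardium and mesothelium, was the only one of 8 epicardial genes, with 2 members of 6.10 and 4.90 and of 0.482 and 0.370. The promoter of Upk3b was not open in both replicates. Col5a1, a fibrillar collagen, was the only one of 18 fibroblast and matrix genes, with 1.13 and 0.961.

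Genes listed here under other tissues were not all without members. Skeletal muscle genes had 3 of 11, or 27.3%, a higher share than the 18.8% of contraction and calcium handling genes. The 3 were Acta1, skeletal alpha-actin, with 1.88 and 1.50, Myod1 with 1.89 and 1.27, and Myog, at 1.37 and 1.04. Myod1 and Myog are master factors of skeletal myogenesis, and the member at Myod1 held a CTCF core. Liver genes had 2 of 17, or 11.8%, among them Pck1, of gluconeogenesis, with 2.00 and 1.55 and a CTCF core. The promoters of Myog and Pck1 had no peak in at least 1 replicate, while those of Acta1 and Myod1 had a peak in each.

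Of 15 immediate early genes 2 had members, Klf6, a zinc finger factor, with 3, the strongest at 2.89 and 2.43, and Junb, of the AP-1 family, at 1.39 and 1.13. The 3' end of Prdx2 also lay within 1 kb of the member at Junb. Of 14 leukocyte, 14 neuronal and 11 ubiquitous genes, 0 had one. In all, 27 of 219 listed genes with room had a member, or 12.3%. The lists are small and were not tested, and their differences from 7.09% are a description.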

How the data were processed

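DNase-seq of 2 heart samples was analysed from the deposited peak and footprint lists. Per the README deposited with each sample, the authors made every list from 1 alignment per replicate on mm10, without pooling; the peak caller and the footprint tool are named in none of them. The peak signal is the authors' deposited value; a read-depth normalised track is listed from the same alignment, but the exact scaling is not stated. Another deposited column of the footprint lists holds 0.01 throughout, its meaning is not stated, and it was not used.

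A region's value was its highest peak in each replicate. Starts, 3' ends, CDS and UTRs came from GENCODE M21, and the rule's distance to a start was taken from the region's nearest edge (classes of distance use the middle base). A promoter peak lay within 1 kb of a start. A footprint counted if it shared 1 base. Sequence was read from GRCm38. Repeats were counted as 32-base words on either strand, over the chromosomes and the mitochondrial genome without unplaced sequence. Intervals are exact binomial (Clopper-Pearson, 95%). Python 3.11.15, numpy 2.4.6, pandas 2.3.3 and scipy 1.17.1 were used, and the functions were tested on simulated data.

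Named are the 20 members with the highest mean signal, up to 3 per gene list and the 5 with the most footprints; other names were chosen after values were seen, and some named by the rule are not reported here. Members, lists and motifs were chosen with earlier results of these data known. Alternatives covered the peak set, the window, the distance from starts, placement, merging and each replicate alone. The FDR lists were not used here.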

Additional observations from a re-analysis of the deposited data

How the results depend on the processing

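No paired analysis was possible because there is 1 group. Of 175 recomputed values for 13 results under 17 settings, 128 stayed within the limits set by counting intervals, by the replicates' SD or by 1.5 times a count, and 47 moved. The median of members stayed above that of other distal regions in every setting run, by 1.36 to 1.48 times. Starts measured from the middle base and leaving out repeated sequence were settings added after seeing the data. With the window at 500 bases there were 727 members, with 2 kb 2786, and over 5 kb from starts 845, which follows from the rule itself. The gene lists then had 17, 47 and 15 genes, and a second 3' end was near 4.81%, 9.08% and 3.79%. At 2 kb 57.4% lay beyond the end. The smaller peak set left 1021 members at 947 genes, against 1479 at 1326, which counts as within the limit of 1.5 times. It gave a median signal of 1.67 and footprints in both replicates in 97.3%. A CTCF core was in 20.3% (13.6% of other distal regions), and the nearest region lay at 4200 bases. The cause was not tested. Regions of 1 replicate alone gave medians of 0.830 to 0.936, footprints in 86.5% to 87.4%, a core in 12.9% to 13.1% (7.83% to 8.44% of other distal regions) and nearest distances of 2144 to 2316 bases. Footprints sharing 50% of the shorter were in 78.2%. Nearest distances were 2458 bases over 1 kb from starts, 3440 over 5 kb, 3081.5 with all transcript ends and 3225 with peaks up to 150 bases apart joined. Depth cannot be set against any value, since no read totals were at hand.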
